A study of Mus musculus with 15 samples.

Results

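The RAS and MAPK cascade genes described here are 43 genes chosen by name as parts of the ERK, JNK and p38 cascades, which lie downstream of growth factor receptors, the receptors of neurotrophins among them. All 43 were found among the 55401 genes counted, and all 43 passed the filter on low counts, which kept 21009 genes. They were measured in 15 libraries of mouse (Kunming strain) oocytes, each made from 6 pooled oocytes with SMART-Seq2, a protocol that primes cDNA on poly(A) tails and amplifies it by PCR. The 3 libraries of the IVV group hold germinal vesicle oocytes of follicles grown in vivo, collected from antral follicles. The other 4 groups of 3 libraries hold oocytes of preantral follicles, taken from females aged 12 to 14 days and grown in vitro. The sample annotation lists 12 to 14 days for the IVV samples too. The paper's methods state this age only for the cultured follicles, so the age of the IVV females is uncertain. These follicles were cultured for 10 days without (IVG day 10) or with (IVG-NT day 10) neurotrophin-4 (NT-4), or for 6 days without (IVG day 6) or with (IVG-NT day 6) NT-4, a ligand of the TRKB receptor. All culture media, those of the controls included, contained FSH and insulin. The paper's methods give the germinal vesicle stage for the oocytes grown in vitro too, on day 6 and day 10.

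In these cascades an activated receptor recruits adaptors such as SHC1 and GRB2 and the exchange factors SOS1 and SOS2, which load RAS with GTP. RAS switches on RAF kinases, and RAF or other MAP3 kinases phosphorylate a MAP2 kinase, which in turn phosphorylates a MAP kinase of the ERK, JNK or p38 type. In fully grown mouse oocytes the ERK branch is driven mainly by the MAP3 kinase MOS, which is translated when meiosis resumes, and mRNA levels of these kinases say nothing of their phosphorylation. The last step of the cascade is the phosphorylation of a threonine and a tyrosine that lie close together in the MAP kinase. The coding stretches around these codons are shown because they carry what sets the branches apart among the 9 MAP kinases measured here. Each stretch is 27 bases long, read from the GENCODE vM21 transcripts on GRCm38, and capitals mark the codons from the threonine to the tyrosine. The middle codon of the capitals starts with GA in the ERK type, with CC in the JNK type and with GG in the p38 type.
Mapk3 (ERK type, exon 4, chr7:126763449-126763475, plus strand): ggctttctgACGGAGTATgtggccaca
Mapk7 (ERK type, exon 3, chr11:61491413-61491439, minus strand): tacttcatgACTGAGTATgtggctact
Mapk8 (JNK, exon 6, chr14:33392994-33393020, minus strand): tttatgatgACGCCTTATgtggtgact
Mapk9 (JNK, exon 6, chr11:49872821-49872847, plus strand): tttatgatgACTCCCTATgtggtaact
Mapk10 (JNK, exon 8, chr5:102989672-102989698, minus strand): ttcatgatgACTCCGTATgtggtgacg
Mapk11 (p38, exon 7, chr15:89145857-89145883, minus strand): gaggagatgACCGGATATgtggccaca
Mapk12 (p38, exon 7, chr15:89134667-89134693, minus strand): agtgagatgACAGGATATgtggtaacc
Mapk13 (p38, exon 7, chr17:28776335-28776361, plus strand): actgagatgACGGGCTATgtggtgacc
Mapk14 (p38, exon 8, chr17:28728390-28728416, plus strand): gatgagatgACAGGCTACgtggctacc

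Some properties of the libraries touch the members. They fall into 9 rRNA-rich libraries, with 12.5% to 37.9% of their counts on CT010467.1, a gene annotated as rRNA, and 6 rRNA-poor libraries with less than 1%. The rRNA-rich ones are replicate 3 of IVV together with replicates 1 and 2 of all groups grown in vitro. Total counts were 19.0 to 55.6 M per library, where M is the mega prefix,, except in replicates 1 and 2 of IVG-NT day 6, which held 5.95 and 7.13 M. In these shallow libraries 15 and 17 of the 43 members had no count, against 0 to 5 in the other 13 libraries. A count of 0 allows up to 0.542 and 0.522 CPM (normalized counts per M counts) in them, counting error only, and at most 0.182 CPM elsewhere. All 12 oocyte markers were detected in all libraries, with a summed level of 12302 to 22007 CPM, while 12 granulosa and cumulus markers summed to 49.8 to 307 CPM. Of 8 macrophage markers 0 to 8 were detected (0 to 65.6 CPM in sum), and of 10 theca and stroma markers 1 to 10 (0.562 to 98.3 CPM). The part of carried-over somatic RNA in the members' levels was not tested. The groups were not split evenly between the kinds of library, with 1 rRNA-rich library of 3 in IVV and 2 of 3 in the in vitro groups.

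Transcript levels of the cascade genes differed widely from gene to gene. Levels between genes are compared as RPKM, which is CPM per kilobase of exon. Over the 15 libraries Mapk3, which encodes ERK1, had the highest mean (87.4 RPKM, at the 97.1 percentile of the genes tested), followed by the MAP2 kinase genes Map2k4 (56.8 RPKM) and Map2k1 (47.8 RPKM). Mapk8, which encodes JNK1, averaged 26.8 RPKM, Mknk1 24.8 RPKM, Map3k5 21.9 RPKM and Map3k11 17.6 RPKM. The ranges over libraries of these 7 genes overlapped, so the order of neighbours in this list lies within their spread. At the other end, Mapkapk3 (0.0364 RPKM), Mapk12 (0.137 RPKM), Spry2 (0.158 RPKM) and Mapk10 (0.198 RPKM) were close to absence in most libraries, with no count in 10, 4, 9 and 3 libraries. The mean of a group passed 1 RPKM for 29 to 31 of the 43 members. In IVV, IVG day 10 and IVG-NT day 10, Mapk3, Map2k4 and Map2k1 took the top 3 places.

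**Figure D1:**
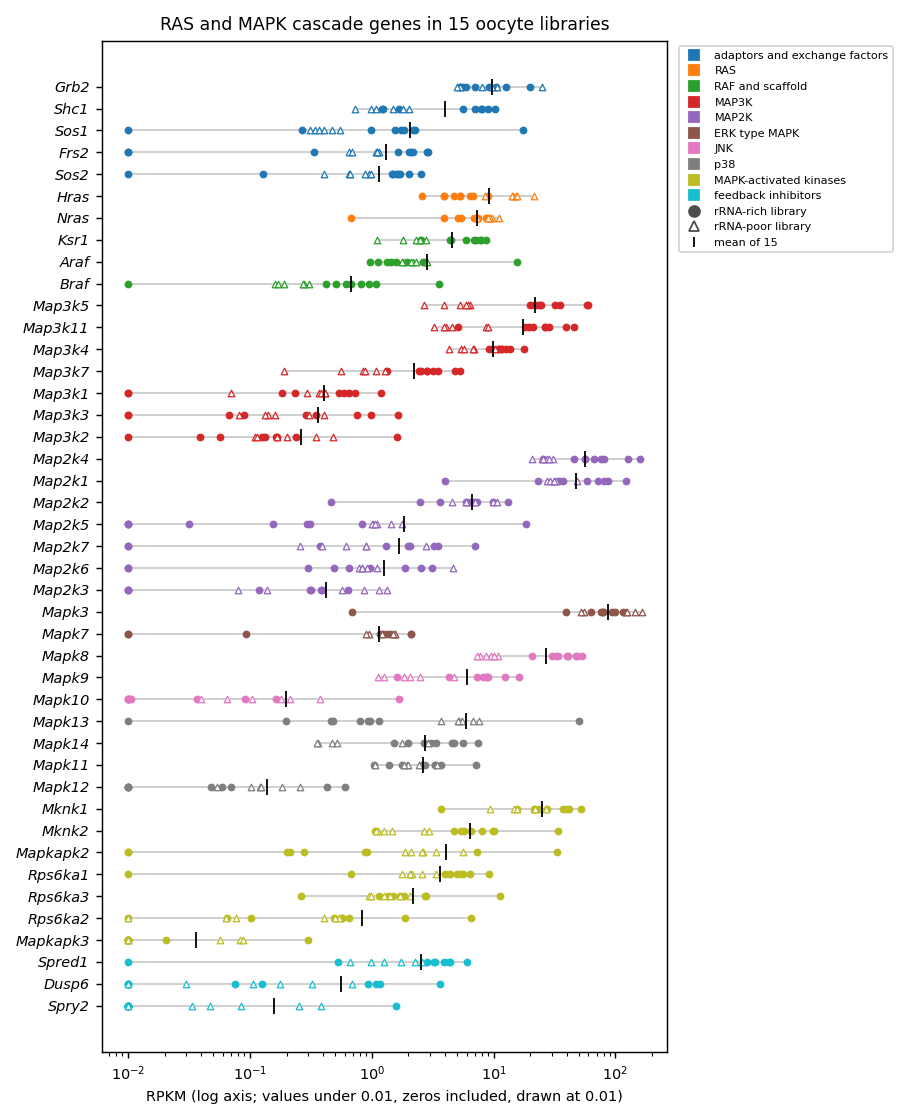
Level of each of the 43 members in each of the 15 libraries, as RPKM on a log axis, grouped by role. Filled circles are rRNA-rich libraries, open triangles rRNA-poor libraries and black ticks the mean of 15. Mapk3 has the highest mean, 87.4 RPKM, and Mapkapk3 the lowest, 0.0364 RPKM, and Mapk8 and Map3k5 show their circles to the right of all their triangles.

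Among the adaptors and exchange factors, Grb2, whose product bridges receptors to SOS, was the most abundant (9.68 RPKM). Its levels were 23.3, 20.4 and 31.0 CPM in IVV, 15.6, 15.6 and 15.5 CPM in IVG day 10, and 26.6, 17.3 and 28.5 CPM in IVG-NT day 10. On day 6 they were 30.8, 57.9 and 14.7 CPM without NT-4 and 16.3, 36.7 and 73.4 CPM with it. The IVG day 10 libraries were thus below all IVV and all IVG-NT day 10 libraries, but by amounts that did not pass the test (log2 fold change -0.68 against IVV, SE 0.81, edgeR adjusted p = 1, two-sided exact permutation p = 0.1). Shc1, an adaptor that docks on phosphorylated receptors, averaged 4.01 RPKM, and its levels are given with the comparisons. The exchange factor genes Sos1 (2.04 RPKM) and Sos2 (1.14 RPKM) and Frs2 (1.32 RPKM), the docking protein of FGF and TRK receptors, were low. Of these, Sos1 owed much of its mean to 17.4 RPKM in the shallow replicate 2 of IVG-NT day 6. Its other libraries held at most 2.28 RPKM. Sos2 exceeded Sos1 per length in all but 3 of the 15 libraries, the exceptions being replicates 1 and 2 of IVG day 10 and replicate 2 of IVG-NT day 6.

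Both RAS genes were detected in every library. Hras averaged 9.17 RPKM and Nras 7.35 RPKM. Hras stood at 31.7, 19.6 and 54.2 CPM in IVV, 14.6, 14.7 and 80.1 CPM in IVG day 10 and 17.8, 24.0 and 53.1 CPM in IVG-NT day 10. On day 6 the values were 19.8, 25.3 and 57.1 CPM without NT-4 and 9.58, 33.6 and 58.3 CPM with it. In the culture groups the highest value was in each case that of replicate 3, the rRNA-poor library. Hras was above Nras per length in 5 of 6 rRNA-poor libraries and in 4 of 9 rRNA-rich libraries. Of the RAF kinases Araf (2.82 RPKM) was above Braf (0.671 RPKM) in 14 of 15 libraries, the exception being replicate 1 of IVG-NT day 6. Shallow libraries of that group raised both means, with 15.5 RPKM for Araf in replicate 2 and 3.60 RPKM for Braf in replicate 1. Elsewhere they reached at most 2.85 and 1.09 RPKM. Ksr1, the scaffold that holds RAF and MEK together, averaged 4.57 RPKM, with 17.5, 31.6 and 16.3 CPM in IVV, 56.4, 54.7 and 17.6 CPM in IVG day 10, 61.1, 48.7 and 12.8 CPM in IVG-NT day 10, 31.2, 51.3 and 19.7 CPM in IVG day 6 and 17.9, 42.3 and 7.78 CPM in IVG-NT day 6. Its rRNA-poor libraries lay between 7.78 and 19.7 CPM in all groups.

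The MAP3 kinases were led by Map3k5 (ASK1, a stress-responsive kinase that feeds JNK and p38; 21.9 RPKM), Map3k11 (MLK3; 17.6 RPKM) and Map3k4 (9.84 RPKM). Map3k5 was at 39.4, 195 and 37.3 CPM in IVV, at 131, 120.5 and 32.1 CPM in IVG day 10, and at 139, 146 and 23.8 CPM in IVG-NT day 10. On day 6 it was at 215, 149.6 and 36.3 CPM without NT-4 and at 359.8, 356 and 16.4 CPM with it. Each group therefore held low values of 16.4 to 39.4 CPM and high values of 120.5 to 359.8 CPM, with nothing between. Map3k7 (TAK1) averaged 2.24 RPKM, while Map3k1 (0.404 RPKM), Map3k3 (0.36 RPKM) and Map3k2 (0.264 RPKM) were low.

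Of the MAP2 kinases, Map2k4, which phosphorylates JNK and p38, and Map2k1 (MEK1), which phosphorylates ERK, were high, and the rest were far lower. Map2k2 (MEK2) averaged 6.67 RPKM and stood below Map2k1 in 14 of 15 libraries, all but replicate 1 of IVG-NT day 6. Map2k4 was at 117, 357 and 128 CPM in IVV, 263, 264 and 143 CPM in IVG day 10, and 377, 308 and 120 CPM in IVG-NT day 10, and its day 6 levels follow with the comparisons. The second IVV value, from the rRNA-rich library, lay among the highest of these. Map2k4 was above Map2k7, the other JNK kinase, in 15 of 15 libraries. Map2k5 (1.84 RPKM), Map2k7 (1.69 RPKM), Map2k6 (1.27 RPKM) and Map2k3 (0.419 RPKM) each had no count in 2 or 3 libraries. The mean of Map2k5 rests on 18.5 RPKM in the shallow replicate 2 of IVG-NT day 6, against at most 1.76 RPKM elsewhere.

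Among the MAP kinases, Mapk3 of the ERK type and Mapk8 of the JNK type had means well above those of the other genes of their type, and the p38 genes had no such leader. Mapk3 was at 125, 211 and 118 CPM in IVV, 173, 177 and 274 CPM in IVG day 10, and 225, 179 and 329 CPM in IVG-NT day 10. On day 6 it was at 141, 89.2 and 371 CPM without NT-4 and at 262, 1.57 and 281 CPM with it. The value of 1.57 CPM rests on 9 counts in the shallow replicate 2, and without it all libraries lay between 89.2 and 371 CPM. Mapk7 (ERK5) averaged 1.14 RPKM. Mapk8 exceeded Mapk9 (JNK2, 6.01 RPKM), and Mapk9 exceeded Mapk10 (JNK3), in 15 of 15 libraries. Mapk8 stood at 109.6, 373 and 123 CPM in IVV, 539.8, 464 and 115 CPM in IVG day 10, 557, 614 and 89.0 CPM in IVG-NT day 10, 385, 457 and 98.4 CPM in IVG day 6, and 348, 236 and 83.7 CPM in IVG-NT day 6. Among the p38 genes, Mapk13 (p38 delta) had the highest mean (5.93 RPKM), which rests on 158 CPM in the shallow replicate 2 of IVG-NT day 6. Elsewhere Mapk13 was at 24.1, 3.03 and 21.2 CPM in IVV, 1.52, 2.54 and 16.4 CPM in IVG day 10, 2.94, 1.46 and 17.3 CPM in IVG-NT day 10, 3.64, 0.618 and 15.98 CPM in IVG day 6 and 0 and 11.6 CPM in the other libraries of IVG-NT day 6. Without that library Mapk13 averaged 2.78 RPKM, beside 2.71 for Mapk14 and 2.32 for Mapk11. Mapk13 was the highest p38 gene in 7 libraries, Mapk14 in 5 and Mapk11 in 3, and Mapk13 was above Mapk14 (p38 alpha, 2.75 RPKM) in 6 of 6 rRNA-poor libraries and in 1 of 9 rRNA-rich libraries. Mapk11 (2.64 RPKM) and Mapk12 were the other p38 genes.

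Kinases activated by MAP kinases were led by Mknk1 (MNK1, which phosphorylates the cap-binding factor eIF4E). It was at 41.7, 105 and 97.3 CPM in IVV, 178, 124 and 97.7 CPM in IVG day 10, and 168, 188 and 120.3 CPM in IVG-NT day 10. On day 6 it was at 70.7, 96.3 and 66.3 CPM without NT-4 and at 236, 16.5 and 69.6 CPM with it. The day 10 libraries lay above or at the upper end of IVV, and the 3 IVG-NT day 10 libraries were above all IVV libraries, with a difference that did not pass the test (log2 fold change 0.96, SE 0.78, edgeR adjusted p = 1, two-sided exact permutation p = 0.1). Mknk2 averaged 6.39 RPKM, Mapkapk2 (MK2) 4.09 RPKM, and the ribosomal S6 kinase genes Rps6ka1, Rps6ka3 and Rps6ka2 were at 3.65, 2.19 and 0.826 RPKM. Shallow libraries of IVG-NT day 6 raised several of these means. Replicate 2 held 33.8 RPKM for Mknk2 and 11.2 RPKM for Rps6ka3, and replicate 1 held 33.3 RPKM for Mapkapk2 and 6.50 RPKM for Rps6ka2. The feedback inhibitors were low. Spred1, an inhibitor of RAF activation, averaged 2.54 RPKM, and Dusp6, the ERK phosphatase, 0.558 RPKM. Spred1 was at 6.70, 29.9 and 4.53 CPM in IVV, 26.3, 22.4 and 11.9 CPM in IVG day 10, 22.2, 29.4 and 8.58 CPM in IVG-NT day 10, 19.4, 40.7 and 15.4 CPM in IVG day 6, and 3.61, 0 and 17.6 CPM in IVG-NT day 6. The members whose levels followed those of Mapk3 most closely over the 15 libraries were Map2k2 (Pearson r of log2 CPM 0.86), Mknk1 (0.72) and Spred1 (0.66), and in all 4 genes the shallow replicate 2 of IVG-NT day 6 had the lowest value.

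IVG oocytes of day 10 were compared with IVV oocytes to ask what culture did to the cascades. Shc1 was higher in the IVG oocytes, Spry2, a feedback inhibitor of receptor-driven RAS and ERK signalling, had counts almost only in IVV, and the other 41 members did not pass the DEG thresholds (log2 fold change beyond 1 and unadjusted P under 0.05). Shc1 was at 4.13, 6.79 and 8.39 CPM in IVV and at 39.8, 50.6 and 10.3 CPM in IVG. All IVG libraries were above all IVV libraries, and the log2 fold change was 2.38 (SE 1.12, edgeR adjusted p = 1). A two-sided exact permutation p = 0.1 belongs to it, the smallest that 3 libraries against 3 can give. The gene lies on chromosome 3, at chr3:89418443-89430027 on the plus strand of GRCm38. Spry2 was at 0.796, 3.27 and 0.528 CPM in IVV, while 2 IVG libraries had no count and the other held 0.0704 CPM. Its log2 fold change was -5.78 (SE 2.55, edgeR adjusted p = 1, two-sided exact permutation p = 0.1), and the IVV and IVG libraries did not overlap. Spry2 lies at chr14:105891947-105896819 on the minus strand. The 2 DEGs are 4.65% of the members, and 2.76% of all genes tested passed the same thresholds. Spry2 and Mapkapk3 passed the filter on low counts only through the IVV libraries, so that a lower level of Spry2 elsewhere was already set by the filter and its test supports nothing further. No adjusted p was under 0.05 for a member or for any other gene (the members' smallest was 1, and 2 of them had an unadjusted P under 0.05).

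Neither call held under all settings. Shc1 was above IVV within each kind of library, with 39.8 and 50.6 against 6.79 CPM in the rRNA-rich and 10.3 against 4.13 and 8.39 CPM in the rRNA-poor libraries. It was also higher in rRNA-rich libraries in general, and once the kind entered the fit as a covariate its log2 fold change was 1.34 and the call was lost. Leaving out any 1 library other than IVG replicate 3 ended both calls. The log2 fold changes of Shc1 were 1.96 to 2.81 over all 6 omissions and those of Spry2 -6.18 to -4.61 over 5 of them, while without IVG replicate 3 the IVG group held no count of Spry2. Without the filter on low counts neither gene was called.

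IVG-NT oocytes of day 10 differed from IVV oocytes in the same direction for both genes, although the 2 comparisons share the IVV libraries and are not independent. Shc1 was at 44.3, 45.3 and 11.4 CPM in IVG-NT, above all IVV libraries (log2 fold change 2.39, SE 1.12, edgeR adjusted p = 1, two-sided exact permutation p = 0.1). Spry2 had no count in any of the 3 IVG-NT libraries, against 118 counts in IVV. Set against a floor of 3 counts over the group, it was at least 36.9-fold lower (edgeR adjusted p = 1, two-sided exact permutation p = 0.1). These 2 DEGs are 4.65% of the members, beside 3.29% of all genes tested. No member had an adjusted p under 0.05. With the kind as a covariate Shc1 was again lost (log2 fold change 1.38), and leaving out any 1 library other than IVG-NT replicate 3 ended its call. The limit on the test of Spry2 set by the filter holds here too.

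**Figure D2:**
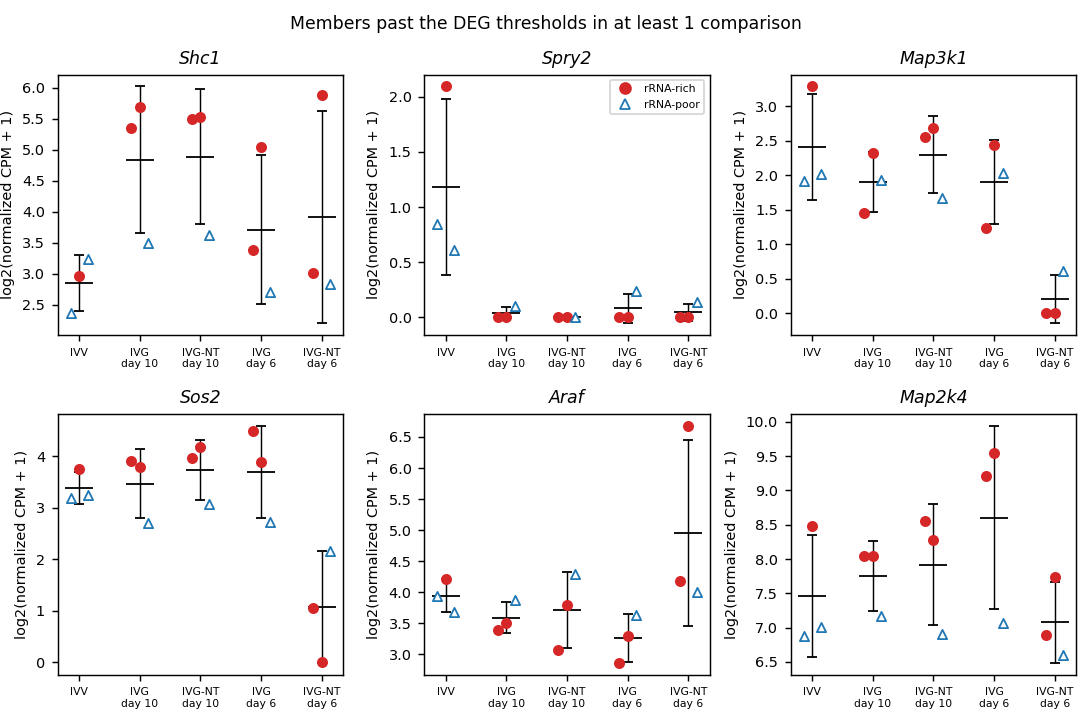
Levels, as log2(normalized CPM + 1), of the 6 members past the DEG thresholds in at least 1 comparison of groups. Each symbol is a library (red circles rRNA-rich, blue triangles rRNA-poor), and bars give the mean and SD of 3 libraries. Shc1 lies above IVV in all 6 day 10 libraries, Spry2 is near 0 outside IVV, and Map3k1 and Sos2 are lowest in IVG-NT day 6.

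None of the other members passed the DEG thresholds against IVV. Of 43 members, 30 had a positive log2 fold change in IVG (beside 42.7% of all genes) and 26 in IVG-NT against IVV (beside 43.2%), with medians of 0.33 and 0.19, while the medians of all genes tested were -0.20 and -0.19. With DESeq2 size factors in place of TMM the medians of all genes became -0.39 and -0.36 and those of the members 0.12 and -0.01. The members thus stayed above the median of all genes, while the sign of the IVG-NT median turned. IVV held 1 rRNA-rich library of 3 and each day 10 group 2 of 3. Between rRNA-rich and rRNA-poor libraries the median log2 fold change was likewise higher for the members (0.33) than for all genes (-0.54). The part of the kind of library in the medians against IVV was not tested here. The groups did not overlap for 5 members in IVG against IVV (11.6%, beside 11.9% of all genes) and for 7 in IVG-NT against IVV (16.3%, beside 11.6% of all genes). Beside Shc1 and Spry2 these were Mapk10, Grb2 and Mapkapk2, lower in IVG, and Mapk10 and Mapkapk2, lower, and Map2k7, Mapk9 and Mknk1, higher, in IVG-NT. Mapk10, a JNK gene best known from neurons, was at 2.37, 18.7 and 4.17 CPM in IVV and at 0.112 to 2.01 CPM in the 6 day 10 libraries (log2 fold change -3.41, SE 1.99 for IVG and -2.997, SE 1.96 for IVG-NT, edgeR adjusted p = 1 and two-sided exact permutation p = 0.1 for both). Held within each kind of library, all day 10 libraries were above all IVV libraries for 5 members (11.6%, beside 8.57% of all genes), namely Map2k1, Mapk9, Map3k11, Shc1 and Mknk1. They were below in both kinds for 6 members (14%, beside 10.6% of all genes), namely Mapk10, Mapk13, Map3k5, Rps6ka2, Mapkapk2 and Spry2. Spry2 passed the filter on low counts only through IVV, so its place in this count and among the groups without overlap was already set.

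**Figure D3:**
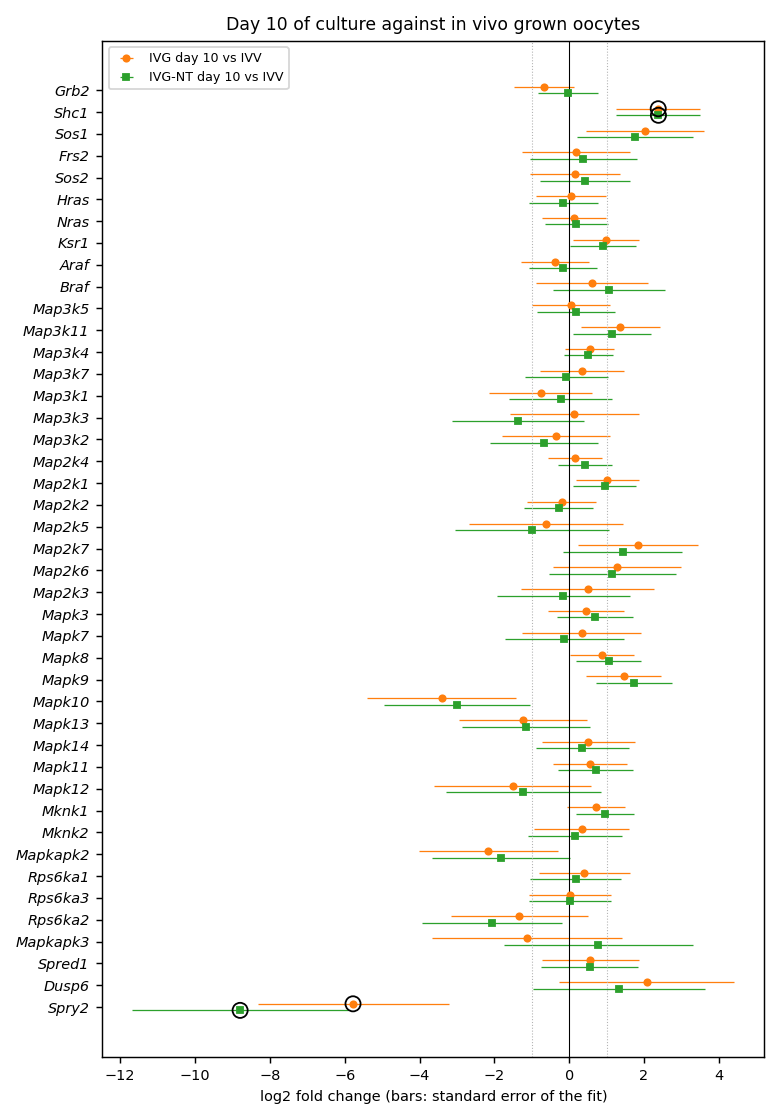
Log2 fold change with its standard error for each of the 43 members, in IVG day 10 (orange circles) and IVG-NT day 10 (green squares) against IVV. Black rings mark DEGs, dotted lines a log2 fold change of 1 either way. Shc1 (2.38 and 2.39) and Spry2 are ringed in both, and the fitted value of Spry2 in IVG-NT stands for a group without a count.

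The effect of NT-4 on the cascades at the end of culture was asked by comparing IVG-NT with IVG on day 10, and no difference was detected. None of the 43 members was a DEG between IVG-NT and IVG, beside 1.24% of all genes tested, none had an unadjusted P under 0.05 in edgeR, and DESeq2 called none either. The member with the smallest edgeR P for a higher level was Grb2, whose 3 IVG-NT libraries were above all IVG libraries (log2 fold change 0.63, SE 0.81, edgeR adjusted p = 1, two-sided exact permutation p = 0.1). For a lower level it was Spry2, with 0 against 4 counts (edgeR adjusted p = 1, two-sided exact permutation p = 1). Shc1 stood at 39.8, 50.6 and 10.3 CPM without and 44.3, 45.3 and 11.4 CPM with NT-4. The median log2 fold change of the members was -0.01, that of all genes 0.01, and groups without overlap occurred for 1 member (2.33%, beside 3.59% of all genes). Blocked by replicate number, the count of DEGs was again 0. Depth and spread still allow changes, as the standard error of 0.81 for Grb2 shows.

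On day 6, 4 members were DEGs between the cultures with and without NT-4. Map3k1 (MEKK1), Map2k4 and Sos2 were lower and Araf was higher in IVG-NT. These 4 are 9.3% of the members, and 11.6% of all genes tested were DEGs, so the share of the members was no larger than the background. The adjusted p of the 4 were between 0.393 and 0.395.

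Map3k1 had no count in the shallow replicates 1 and 2 of IVG-NT and 0.522 CPM in replicate 3, against 1.37, 4.43 and 3.10 CPM in IVG (log2 fold change -3.79, SE 1.55, edgeR adjusted p = 0.393, two-sided exact permutation p = 0.1). Sos2 was at 1.08, 0 and 3.47 CPM with and at 21.4, 13.8 and 5.62 CPM without NT-4 (log2 fold change -3.12, SE 1.31, edgeR adjusted p = 0.395, two-sided exact permutation p = 0.1). In IVV Map3k1 was at 2.76, 8.79 and 3.07 CPM and in IVG day 10 at 1.74, 4.01 and 2.83 CPM. In IVV Sos2 was at 8.13, 12.4 and 8.46 CPM and in IVG day 10 at 14.1, 12.8 and 5.51 CPM. Both genes thus had their lowest levels in IVG-NT day 6. For both genes, Map3k1 at chr13:111746428-111808993 and Sos2 at chr12:69583762-69681852, the groups did not overlap. Map2k4 (chr11:65688243-65788297) was at 118, 213 and 96.2 CPM with NT-4 and at 589, 743 and 134 CPM without it (log2 fold change -1.78, SE 0.74, edgeR adjusted p = 0.394, two-sided exact permutation p = 0.2), with an overlap at the rRNA-poor IVG library. The Araf gene (chrX:20797814-20860519) overlaps Syn1 on the opposite strand, and whether the counting used strand is not known. Araf was at 17.2, 102 and 15.1 CPM with and at 6.30, 8.80 and 11.5 CPM without NT-4 (log2 fold change 2.33, SE 0.96, edgeR adjusted p = 0.393, two-sided exact permutation p = 0.1). It was at 14.3, 17.6 and 11.9 CPM in IVV, 9.49, 10.4 and 13.7 CPM in IVG day 10 and 7.42, 12.8 and 18.7 CPM in IVG-NT day 10. Its day 6 groups did not overlap, but the size of the difference came from replicate 2, without which the log2 fold change was 0.89 and the call was lost.

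With both shallow IVG-NT libraries left out, which leaves 1 library in that group whose spread is taken from the others, none of the 4 was a DEG. Their log2 fold changes were then -2.41 for Map3k1, -1.87 for Sos2, -2.24 for Map2k4 and 0.84 for Araf, all in the same direction as before. The library that remains is rRNA-poor and is set against 2 rRNA-rich and 1 rRNA-poor libraries of IVG. Between the rRNA-poor libraries alone Map2k4 was at 96.2 CPM with and 134 CPM without NT-4, Map3k1 at 0.522 and 3.10 CPM, Sos2 at 3.47 and 5.62 CPM and Araf at 15.1 and 11.5 CPM. In that fit 2 other members, Map2k6 and Rps6ka2, passed the thresholds. Values per library show how uneven the shallow libraries were. Sos1 had no count in replicate 1 and 184 CPM in replicate 2, Braf 49.9 CPM and no count, Mapkapk2 101 CPM and no count, and Map2k5 no count and 60.0 CPM.

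From day 6 to day 10 of culture without NT-4 no member was a DEG, beside 2.9% of all genes, and none had an unadjusted P under 0.05 in edgeR, while DESeq2 called Map2k3 and Map3k2. The smallest P for a rise belonged to Mapkapk3, which passed the filter only through IVV, with no count on day 6 and 0, 5 and 18 counts on day 10 (at least 6.47-fold higher, edgeR adjusted p = 1, two-sided exact permutation p = 0.4). For a fall it was Map2k4, at 263, 264 and 143 CPM on day 10 against 589, 743 and 134 CPM on day 6 (log2 fold change -1.13, SE 0.73, edgeR adjusted p = 1, two-sided exact permutation p = 0.4). Within the rRNA-rich libraries alone Map2k4 was a DEG (log2 fold change -1.36), and in the fit blocked by replicate number Shc1 was the 1 DEG, higher on day 10. Shc1 had been at 9.43, 32.0 and 5.53 CPM on day 6 without NT-4 and at 7.05, 58.1 and 6.13 CPM with it. Spry2 was already at 0, 0 and 0.177 CPM on day 6 without NT-4 and at 0, 0 and 0.0978 CPM with it.

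With NT-4, 2 members were higher on day 10 than on day 6, Map3k1 (4.86, 5.45 and 2.17 CPM on day 10, log2 fold change 4.28, SE 1.58, two-sided exact permutation p = 0.1) and Sos2 (14.6, 17.1 and 7.44 CPM on day 10, log2 fold change 3.06, SE 1.30, two-sided exact permutation p = 0.1). They are 4.65% of the members, beside 12.7% of all genes tested, and their edgeR adjusted p were 0.357 and 0.366. No member was a DEG in the other direction, in which Araf came closest (log2 fold change -1.78, SE 0.94, edgeR adjusted p = 0.437, two-sided exact permutation p = 0.3). Without the shallow day 6 libraries neither Map3k1 (log2 fold change 2.88) nor Sos2 (1.80) was a DEG. In the test of whether the NT-4 contrast differed between day 10 and day 6, Map3k1 was the only member past the thresholds (log2 difference 4.33, SE 2.04, edgeR adjusted p = 0.776), beside 6.37% of all genes. For the opposite direction Araf had the smallest P (log2 difference -2.12, SE 1.31, edgeR adjusted p = 0.891).

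**Figure D4:**
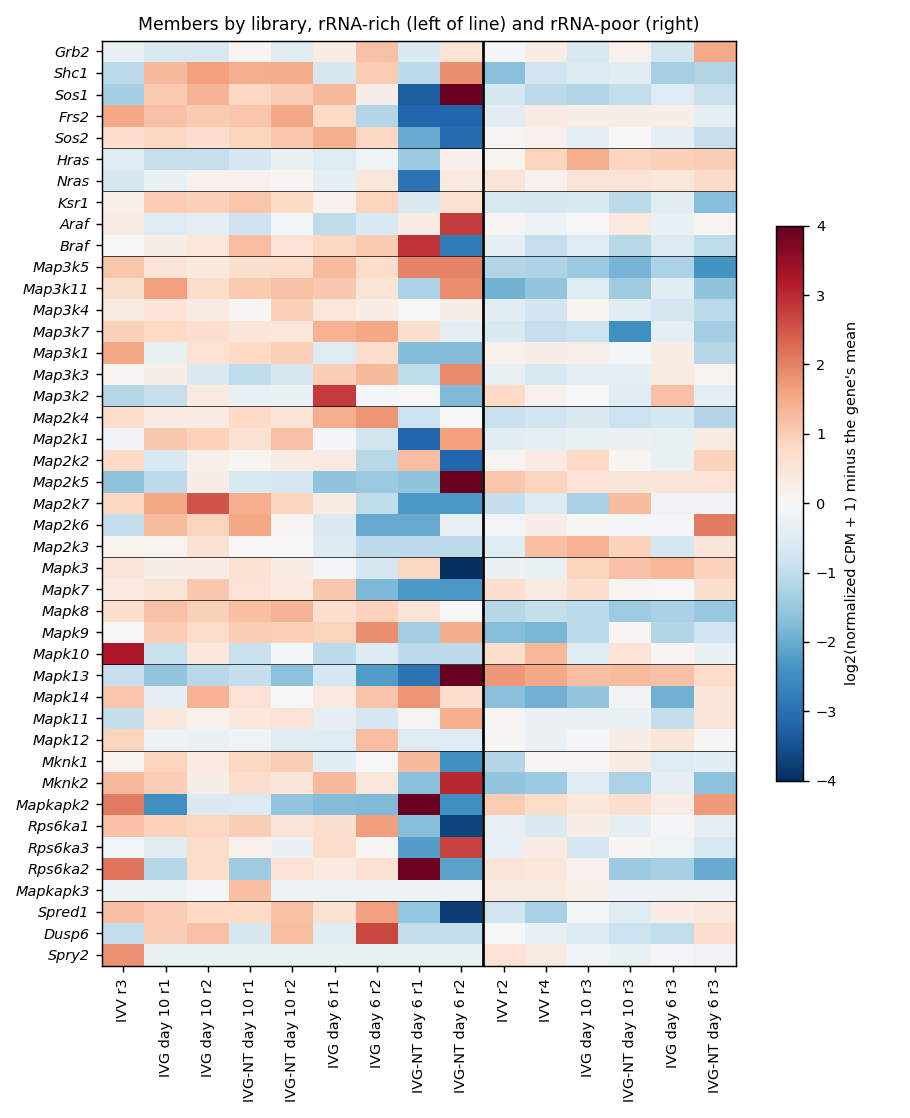
Level of each member in each library as log2(normalized CPM + 1) minus the gene's mean over 15 libraries, with the 9 rRNA-rich libraries left of the black line and the 6 rRNA-poor libraries right of it. Thin lines divide the roles. Mapk8, Map3k5 and Map2k4 are red on the left and blue on the right, Hras the reverse, and replicates 1 and 2 of IVG-NT day 6 hold most of the darkest cells.

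Members also differed between the kinds of library. This contrast sets 9 libraries against 6, so its counts are not comparable with those of 3 libraries against 3. In a fit of group means plus the kind, 12 of the 43 members passed the DEG thresholds (27.9%, beside 35.1% of all genes tested), 10 of them higher and 2 lower in the rRNA-rich libraries (beside 12.3% and 22.8% of all genes), and 11 members had an edgeR adjusted p under 0.05 (beside 23.7%). The median log2 fold change of the members was 0.33 and that of all genes -0.54. The summed level of the members spanned 1902 to 2631 CPM where rRNA was rich (9 libraries) and 935 to 1304 CPM where it was poor (6 libraries). The members with the smallest P on the higher side were Mapk8, Map3k5, Map2k4, Map3k11 and Map3k7.

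Mapk8 ranged from 236 to 614 CPM (median 457) in rRNA-rich and from 83.7 to 123 CPM (median 104) in rRNA-poor libraries (log2 fold change 2.08, SE 0.23, edgeR adjusted p = 3.89e-05). Map3k5 ranged from 120.5 to 359.8 CPM (median 149.6) and from 16.4 to 39.4 CPM (median 34.2), with a log2 fold change of 2.63 (SE 0.35, adjusted p = 0.000139). For both genes the kinds did not overlap, and Mapk8 shares its span with annotated genes on either strand. Map2k4 (1.37, SE 0.26, adjusted p = 0.00226), Map3k11 (2.14, SE 0.46, adjusted p = 0.00499) and Map3k7 (2.17, SE 0.56, adjusted p = 0.013) followed on the log2 scale. The other members higher in rRNA-rich libraries were Ksr1, Mapk9, Mknk2, Mapk14 and Shc1, and Map3k4 was higher by less than the fold required (0.89, SE 0.28, adjusted p = 0.0312). Hras was lower in them, with 9.58 to 33.6 CPM (median 19.6) against 31.7 to 80.1 CPM (median 55.6) and a log2 fold change of -1.55 (SE 0.40, adjusted p = 0.0136). Mapk13 was lower with a log2 fold change of -2.44 (SE 1.14, adjusted p = 0.135). For Map2k5 (-3.02, SE 1.85), Spry2 (-2.07, SE 1.31) and Map2k3 (-1.81, SE 1.11) the log2 fold changes did not pass the thresholds. Across the 43 members the log2 fold change between kinds went with exon length (Spearman's rho 0.47), as it did across 20977 genes tested with a known length (0.47), a description in which all genes share the same libraries. The part of the kind of library in the comparisons of groups was not tested beyond the fits with it as a covariate.

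**Figure D5:**
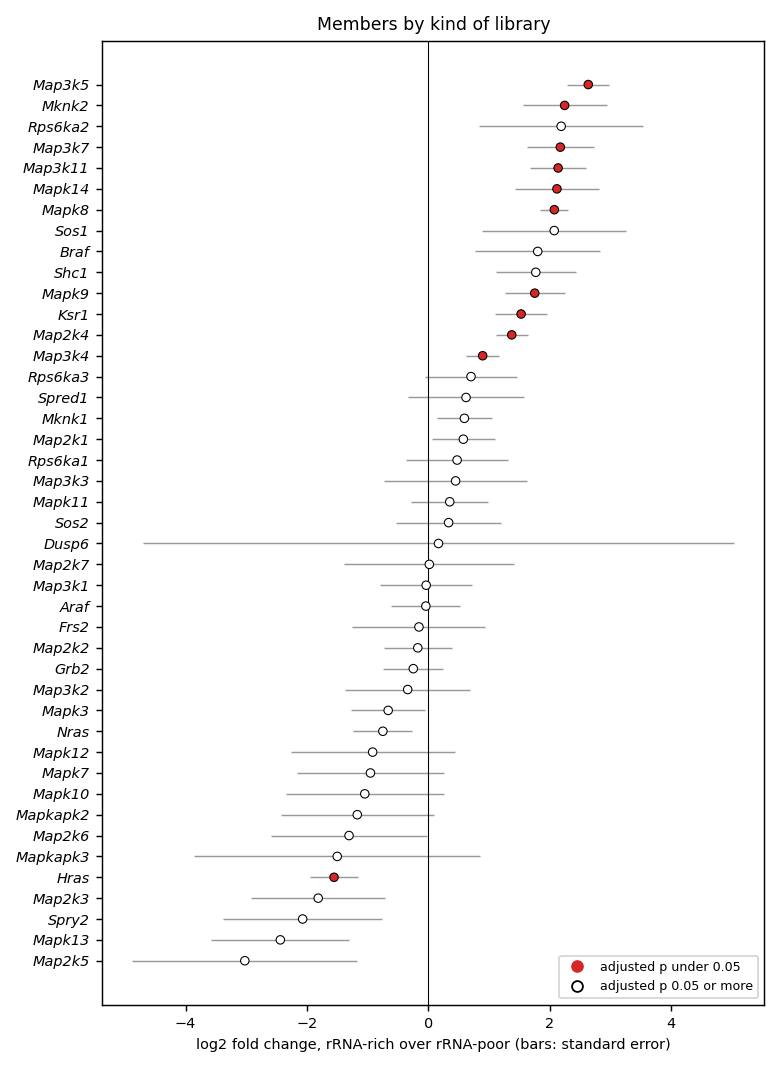
Log2 fold change of each member between the 9 rRNA-rich and the 6 rRNA-poor libraries, from the fit with group means, with its standard error. Red points have an adjusted p under 0.05. Map3k5 (2.63) and Mapk8 (2.08) are among the 10 red points above 0, and Hras (-1.55) is the red point below 0.

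Of a list of other genes of these pathways, 56 were found and 52 tested. In IVG against IVV on day 10, 3 were DEGs (5.77%, beside 2.76% of all genes), namely the RAS exchange factor genes Rasgrp3 and Rasgrf1, neither of which had a count in IVG (bounds of at least 30.9-fold and 19.3-fold lower), and the docking protein gene Gab2, higher (log2 fold change 1.95, SE 0.88, edgeR adjusted p = 1). All 3 had the same direction in IVG-NT day 10 against IVV. Rasgrf1 again had no count there (bound of at least 14.99-fold lower), and Rasgrp3 had 14 counts, all in replicate 3 (log2 fold change -3.31, SE 2.58). Gab2 was higher (log2 fold change 1.73, SE 0.88). None of the 52 genes tested passed the DEG thresholds in IVG-NT against IVV or in IVG-NT against IVG. On day 6, 10 were DEGs with NT-4 (6 higher and 4 lower, 19.2% beside 11.6% of all genes), among them the MAP4 kinase gene Map4k2 (log2 fold change -4.48, SE 1.43, edgeR adjusted p = 0.381) and the RAS inhibitor gene Nf1 (-3.19, SE 1.16, edgeR adjusted p = 0.381), both lower. Rasgrp2 and Map3k14 were without a count in IVG day 6, and their 4108 and 759 counts in IVG-NT day 6 lay in the shallow replicate 2 for all 4108 of Rasgrp2 and for 755 of Map3k14. Rasgrf1, also higher, had 1697 counts in that replicate and 16 in replicate 3. Rasgrp3, higher too, had only 5 and 8 counts, in the shallow replicates 1 and 2. How these 10 calls change without the shallow libraries was not tested. Between day 6 and day 10, 3 were DEGs without NT-4 (5.77%, beside 2.9% of all genes) and 9 with it (17.3%, beside 12.7%). Between the kinds of library 24 were DEGs (46.2%, beside 35.1% of all genes), 21 of them higher (beside 12.3%) and 3 lower (beside 22.8%) in the rRNA-rich libraries, while Mos, the MAP3 kinase gene specific to germ cells, was lower there (log2 fold change -1.39, SE 0.25, adjusted p = 0.00159).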

How the data were processed

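Reads free of adaptors and of low quality bases were aligned by the authors to mm10 (HISAT2), and raw counts were deposited per Ensembl gene for each of the 15 libraries. The annotation release, the counting tool and its use of strand are not given in the sources used here, and 20 of the 43 members overlap another annotated gene, so their counts may hold reads of it. Symbols and exon lengths came from GENCODE vM21 (GRCm38). IVV libraries are numbered 2, 3 and 4 by title but 1, 2 and 3 in the names of the deposited files. The titles were used, and blocks by number that include IVV depend on that choice. Such blocked fits held only replicates 2 and 3 of the groups compared, and the other libraries were left out.

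Counts were tested in R 4.3.3 with edgeR 4.0.16 (filterByExpr, minimum count 10, TMM, quasi-likelihood F test). The standard errors (SE) were derived from that test, as the absolute log2 fold change over the square root of F. A single model with a mean for each group took in all 15 libraries, with Benjamini-Hochberg adjustment over 21009 genes. DEGs, as in the paper, exceed 1 in absolute log2 fold change with P under 0.05 before adjustment. Since groups hold 3 libraries, the p-values printed are adjusted ones and those of exact permutation tests (two-sided) of log2(CPM + 1) between groups, added to the edgeR test that had been planned. Normalized CPM used TMM library sizes. DESeq2 1.42.0 served as an alternative, and the code was tested on simulated data. Libraries with over 5% of counts on CT010467.1 were called rRNA-rich. The library kind, members and lists were chosen with earlier results of these data known. Values in every library are given for DEGs and for the gene with the highest mean RPKM of each role, with the smallest P in a direction that held fewer than 2 DEGs. For the kind of library these are the 5 smallest P either way.

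The paper says the samples of a group come from replicated experiments, without saying which numbers share one. Deviations from the group means correlated between same-numbered libraries at 0.371 to 0.732 in IVG-NT against IVG on day 10. In IVG day 10 against day 6 they correlated at 0.147 to 0.538. Between differently numbered libraries the correlations reached 0.374 and 0.258 in these comparisons, in both cases between replicates 1 and 2. In every group grown in vitro replicates 1 and 2 were rRNA-rich and replicate 3 rRNA-poor. Shared experiments therefore cannot be told apart from the kind of library, and pairing was not established. In the day 6 and IVG-NT time comparisons the lowest correlations of same-numbered libraries were 0.083 and 0.066. An exact permutation test of 3 libraries against 3 cannot go below p = 0.1. PCR copies carry no molecular identifiers, so intervals and floors from counts cover counting error only.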

Additional observations from a re-analysis of the deposited data

Results flagged for a closer look

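The contrast of NT-4 against control culture differed between day 10 and day 6 for Map3k1, by 4.33 on the log2 scale (SE 2.04, edgeR interaction test, unadjusted P under 0.05 but adjusted p = 0.776 over all genes tested). Map3k1 was at 1.74, 4.01 and 2.83 CPM without and 4.86, 5.45 and 2.17 CPM with NT-4 on day 10, and at 1.37, 4.43 and 3.10 CPM without and 0, 0 and 0.522 CPM with NT-4 on day 6. The libraries at 0 were the shallow replicates 1 and 2. Without them the difference was 2.92 and no longer past the thresholds.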

How the results depend on the processing

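The number of members called as DEGs changed with most settings, and in brackets stands the share of all genes called under the same setting. For IVG against IVV on day 10 it was 2 (2.76%). It became 1 with DESeq2 size factors (2.58%) or the library kind as a covariate (3.83%), and 0 without a filter on low counts (4.49%), with the replicate block (0.4%) or in the rRNA-rich libraries alone (1.68%), where IVV has 1 library whose spread is taken from the others. It was 4 when only the 2 groups (5.28%) or only the 9 libraries of IVV and day 10 (4.62%) were fitted. Without 1 library it was 0 to 2 (0.843% to 4.56%). The replicate block against IVV held only replicates 2 and 3, the numbers that IVV shares with the day 10 groups. For IVG-NT against IVV the count of 2 (3.29%) became 1 with DESeq2 size factors (3.25%), without the filter (4.33%) and with the kind (4.31%), 5 with only the 2 groups (4.1%), 0 with the replicate block (0.417%) and in the rRNA-rich libraries (1.53%, again with 1 IVV library), and 1 to 2 without 1 library (0.999% to 4.77%; 1 without IVV replicates 2 or 4 or IVG-NT replicates 1 or 2). For IVG-NT against IVG on day 10 it was 0 in all settings. On day 6 the count of 4 (11.6%) became 2 without the filter (11%), 9 with DESeq2 (12.6%), 7 with the kind (15.8%), 0 with only the 2 groups (3.06%) or the replicate block (2.2%), 10 in the rRNA-rich libraries (18.1%), 2 without both shallow libraries (2.7%), and 0 to 8 without 1 library (7.47% to 29.1%). It was 8 without IVG-NT day 6 replicate 1 (10.1%) or 3 (29.1%), 1 without IVG day 6 replicate 1 and 0 without its replicate 2 (7.47%). For IVG day 10 against day 6 the count of 0 (2.9%) became 2 with DESeq2 (2.82%). It became 1 with the replicate block (5.33%) or in the rRNA-rich libraries (1.77%). Without 1 library it was 0 to 1 (1 without IVG day 6 replicate 3, 3.91%). For IVG-NT day 10 against day 6 the count of 2 (12.7%) became 0 without the filter (11.6%), with only the 2 groups (4.51%) or the replicate block (3.2%), 8 with DESeq2 (13%) or in the rRNA-rich libraries (19.5%), and 1 to 10 without 1 library. It was 1 without day 10 replicate 1 (7.1%) or 2, and 7, 5 and 10 without day 6 replicates 1, 2 and 3 (10.4%, 11.2% and 30.8%). For the difference of the NT-4 contrasts the count of 1 (6.37%) became 0 with DESeq2 size factors (6.73%), without the filter (4.96%) or without both shallow libraries (1.95%), 4 with DESeq2 (5.84%), 3 with the kind (8.96%), and 0 to 7 without 1 library (4.81% to 21.1%). It was 7 without IVG-NT day 6 replicate 3 (21.1%), 2 without its replicates 1 or 2 or without IVG day 6 replicate 3, and 0 without any IVG day 10 library, IVG-NT day 10 replicates 1 or 2 or IVG day 6 replicates 1 or 2. For the kind of library the count of 12 (35.1%) was 10 to 18 over all settings. The shares of all genes for that range are not given, so it cannot be read against the background. The fits without both shallow libraries and with 9 libraries were added after the data had been seen. No fold of Spry2 between IVG-NT and IVG could be given where both groups had no count. Of the values for single members under other settings, 314 kept their direction and side of the thresholds, 97 kept the direction and lost the call, 15 gained it, and none turned. The causes were not tested. Depth limits the members mainly in the shallow libraries, in which 15 and 17 of 43 had no count.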
